A study of Rattus norvegicus with 24 samples.

Results

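The cytosolic ribosomal protein genes were described in the livers of 24 adolescent Sprague-Dawley rats, an outbred laboratory stock. A gene was taken when its symbol had the form of a cytosolic ribosomal protein (Rpl or Rps with a number, Rplp0, Rplp1, Rplp2, Rpsa or Fau), and pseudogenes and Rps6k kinase genes were left out. The rule found 82 genes among 15319 measured. Of these, 79 had enough counts to be tested, and Rpl3l, Rpl39l1 and Rps12l4 never had more than 5 counts in a library. Rpl37, Rpl37a and Rps9 were not analysed here.

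The study asked which liver genes change after inhalation of PCB 52, a polychlorinated biphenyl (one of a class of persistent industrial chemicals), and used 6 animals in each of 4 groups. Exposed females and exposed males breathed air passed over PCB 52 in a nose-only apparatus, 4 h daily for 28 days, with the flow set to 12 L/min. Sham females and sham males were the controls. Females entered at 42 days of age and males at 39 days, so the sexes also differ in starting age. Each library was 1 animal and none was pooled, and p-values therefore measure the spread between animals.

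Cytosolic ribosomes translate nuclear-encoded messages. The small (40S) subunit reads the messenger RNA and the large (60S) subunit joins amino acids, and almost every ribosomal protein is needed in a single copy per ribosome. Many of these messages begin with a C followed by an unbroken run of pyrimidines, the terminal oligopyrimidine (TOP) tract, through which the growth kinase complex mTORC1 and the RNA-binding protein Larp1 control their translation and stability. In liver the genes are active in all cell types, so whole-tissue levels are mostly those of hepatocytes, the most abundant cells. In bulk tissue, fewer cells of a type and less RNA per cell cannot be told apart.

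The TOP tract is visible at the annotated starts. A run of at least 5 C or T, beginning with C within 2 bases of the RefSeq start (GRCr8 build, strand of the gene), was present in 34 of the 66 genes of the family that had a promoter entry (51.5%). It was present in 8.90% of the 12198 measured genes with an entry. Windows of 30 bases, 15 before and 15 from the annotated start, are shown for 6 genes that carry the run, with the run in capitals, and for 2 that have no such run within 2 bases of the start and whose levels are described at length here. A later run, as in Rps28, was not counted. A match is a description of the letters and does not show that the message is under TOP control.

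Rpl10, chrX:157205835-157205864, plus strand: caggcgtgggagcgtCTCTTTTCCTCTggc
Rpl31, chr9:49143096-49143125, plus strand: ccacaatccctcgcgCCTTTCCTTTCCaac
Rpl35a, chr11:81235007-81235036, minus strand: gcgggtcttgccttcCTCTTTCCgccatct
Rps7, chr6:50999431-50999460, minus strand: tcgcgagagctgtgtCTCTTTCTaagccgg
Rps18, chr20:4933730-4933759, plus strand: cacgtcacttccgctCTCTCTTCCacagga
Rps23, chr2:23814502-23814531, plus strand: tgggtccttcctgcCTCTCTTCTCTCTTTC
Rpl36, chr9:1533765-1533794, plus strand: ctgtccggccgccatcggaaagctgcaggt
Rps28, chr7:15311319-15311348, minus strand: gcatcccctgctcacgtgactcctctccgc

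Libraries held between 6994832 and 9185511 gene counts. The 82 genes together took between 1.086% and 1.693% of a library, and the 95% Wilson interval of such a share reached at most 0.00853 percentage points to either side, which covers counting error only. Levels of single genes are given as normalised CPM, counts per 1000000 library counts after TMM scaling. Transcript lengths were not used, so levels are not compared between genes. Hepatocyte markers were high in every library, with a summed level of 149600 to 210300 normalised CPM for 8 genes.

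Animal 2 and animals 13 to 16 stood apart from the rest. Animal 2, a sham female, had a share of 1.693%, against 1.301% to 1.433% in the other sham females. Animals 13 to 16, all exposed, had the 4 highest values of a score that ordered the libraries. This score was the leading axis of variation within groups over all other genes, and the animals of 1 sex were scored with weights taken from the other. The axis accounted for 16.6% of the variance within groups among females and 19.8% among males, and the labels do not name its source. Scores of animals 13 to 16 ran from 11.2 to 15.1, and those of sham animals from −4.67 to 8.96. Results are therefore given with and without these animals.

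The mean summed share was higher in females than in males, and lower in the exposed than in the sham group of each sex. Sham females averaged 1.42% ± 0.144 (SD, n = 6) of library counts, with a median of 1.391%. Exposed females averaged 1.279% ± 0.0823, between 1.164% and 1.408%. Sham males averaged 1.224% ± 0.0535, between 1.143% and 1.291%. Exposed males averaged 1.148% ± 0.0567, between 1.086% and 1.216%. The ranges of exposed and sham animals overlapped in both sexes, and so did those of the sexes among exposed animals. Among sham animals every female lay above every male, the lowest female standing at 1.301% and the highest male at 1.291%. The separation did not hold on other scales. As a share of TMM-scaled totals, sham females ran from 1.24% to 1.722% and sham males from 1.124% to 1.337%, and the ranges overlapped. The mean log2 level of 79 genes overlapped too, with a lowest sham female of 6.94 and a highest sham male of 7.08.

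**Figure D1:**
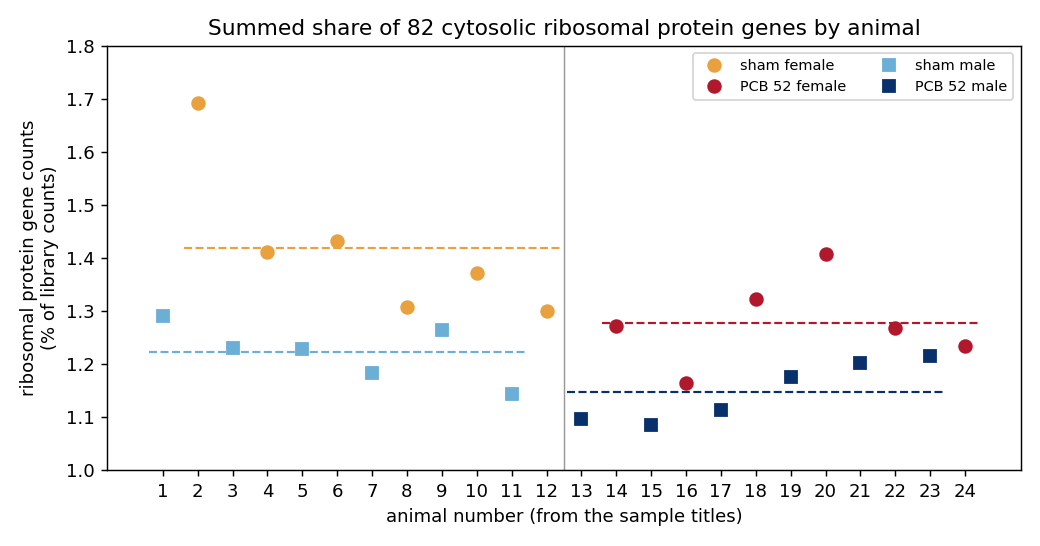
Share of library counts in the 82 ribosomal protein genes (percent, axis from 1.0) for each of the 24 animals by animal number, with females as circles, males as squares and a dashed line at each group mean. Animal 2 stands highest at 1.693%, and exposed males 13 and 15 stand lowest at 1.097% and 1.086%.

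In exposed females nearly the whole family lay slightly below the sham level, but no gene passed the test. By edgeR's quasi-likelihood test with Benjamini-Hochberg adjustment over all genes, 0 of 79 passed an adjusted p of 0.05, as did 0% of the 10251 genes tested. The log2 fold change was below 0 for 76 of the 79, with a median of −0.15, while the median of all genes was 0.00. An unadjusted p under 0.05 with a lower level in exposed females was found for 19 of 79 (24.1%), against 5.32% of all genes. DESeq2 and limma-voom also passed 0 of the 79. The genes are not independent of each other, so these counts describe the family and are not a test of it. Without animal 2 the median was −0.08 and 63 genes lay below 0. Without animals 2, 14 and 16 the median was −0.04, with 63 below 0.

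Among small-subunit genes in females, Rps19, Fau and Rps28 lay below sham, and all 3 missed the threshold. Rps19, whose mutation is a cause of Diamond-Blackfan anaemia, ranged from 184 to 262 normalised CPM in sham females (median 213). In exposed females it ranged from 122 to 200 (median 182). All 6 exposed animals lay below the sham mean, and the groups overlapped, with a log2 fold change of −0.32 ± 0.11 (SE) and an adjusted p of 0.410. Fau, which encodes a ubiquitin-like domain fused to a small-subunit protein, ranged from 127 to 237 in sham females (median 175) and from 119 to 165 in exposed females (median 129). Its log2 fold change was −0.37 ± 0.13, with an adjusted p of 0.410, and again 6 of 6 exposed animals lay below the sham mean. Rps28, chosen after its values were seen for the widest change in the family, ranged from 25.7 to 47.9 in sham and from 14.98 to 36.4 in exposed females. Its log2 fold change was −0.52 ± 0.19 and its adjusted p 0.440.

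Rps6, Rpsa and Rps24 also missed the threshold. Rps6, the substrate of the S6 kinases, had a median of 708 normalised CPM in sham and 672 in exposed females (log2 fold change −0.11 ± 0.09, adjusted p = 0.695). Rpsa, also known as the laminin receptor precursor, had medians of 313 and 301 (−0.13 ± 0.10, adjusted p = 0.677). Rps24 had medians of 106 and 107, a log2 fold change of 0.02 ± 0.10. For each of these genes the interval between the groups' medians was small beside the spread within a group.

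Of the large-subunit genes in females, Rpl36 had the smallest p of the family. It ranged from 113 to 187 normalised CPM in sham females (median 155) and from 76.7 to 134 in exposed females (median 109). All 6 exposed animals lay below the sham mean, and the groups overlapped. The log2 fold change was −0.48 ± 0.13 with an adjusted p of 0.341. Rpl37l1, a gene of the Rpl37 family, had medians of 76.5 in sham and 63.1 in exposed females (−0.36 ± 0.13, adjusted p = 0.410). Rpl38, known for its part in translating Hox messages, had medians of 29.4 and 25.02 (−0.36 ± 0.14, adjusted p = 0.432). Rpl8, a protein near the peptidyl transferase centre, had medians of 454 and 397 (−0.30 ± 0.11, adjusted p = 0.435).

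Rpl5 and Rpl11, which bind 5S rRNA and, when free, the p53 regulator Mdm2, also missed the threshold. Rpl5 had a log2 fold change of −0.10 ± 0.09 in females and Rpl11 one of −0.20 ± 0.12. Rpl11 was low in 1 exposed female, animal 16, at 78.3 normalised CPM, with the other exposed females at 117 to 131. On the higher side stood Rpl22l1, a paralog of Rpl22, with medians of 14.2 in sham and 16.2 in exposed females (0.14 ± 0.13, adjusted p = 0.735). Its parent gene Rpl22 had medians of 64.5 and 61.6.

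Other genes named by level, by role or as parents of a paralog are given by their medians in sham females, exposed females, sham males and exposed males, in that order. Rpl7a was at 563, 505, 472 and 476 normalised CPM, and Rpl4 at 446, 458, 411 and 405. Rpl3 was at 264.3, 269, 248 and 252, Rpl7 at 309, 314, 264.9 and 272, and Rps27 at 77.2, 75.5, 69.4 and 63.5. Rpl13a was at 259, 231, 227 and 209, Rpl41 at 219.7, 200.05, 227.6 and 200.2, and Rpl39 at 58.9, 49.96, 53.9 and 47.4. Exposed medians of Rpl13a, Rpl41 and Rpl39 were below sham in both sexes, and none of these 8 genes passed in either exposure comparison.

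The stalk proteins, which recruit elongation factors to the large subunit, gave mixed values in females. Rplp0 had a log2 fold change of −0.12 ± 0.09, Rplp1 one of 0.09 ± 0.12 and Rplp2 one of −0.04 ± 0.10. The highest Rplp1 value, 409 normalised CPM, was that of animal 16, in which Rpl11, Rpl22 and Rps3 were at their lowest of the 6 exposed females. For the ubiquitin fusion Rps27a, medians were 137 in sham and 88.6 in exposed females, a log2 fold change of −0.43 ± 0.25 with an adjusted p of 0.584. Its SE was the larger because single animals lay far apart, as described with the single genes further on.

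In exposed males most of the family also lay below sham, and this moved with animals 13 and 15. Of 79 genes, 0 passed, as did 0% of 10180 genes tested, and 60 lay below 0. The median log2 fold change was −0.07, beside 0.00 for all genes. An unadjusted p under 0.05 with a lower level was found for 9 of 79 (11.4%), against 2.85% of all genes. DESeq2 and limma-voom also passed 0 of the 79. Without animals 13 and 15 the median was −0.02 and 51 genes lay below 0.

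The genes with the smallest p in males belonged to both subunits. Fau ranged from 127 to 175 normalised CPM in sham males (median 162) and from 97.3 to 156 in exposed males (median 134), a log2 fold change of −0.30 ± 0.12 with an adjusted p of 0.829. Animals 13 and 15 gave the 2 lowest values, 97.3 and 101. Rps23, a protein of the decoding centre, had medians of 140 and 122 (−0.18 ± 0.07). Rps18, a protein of the small-subunit head, had medians of 173 and 154 (−0.20 ± 0.09). Rpl35a had medians of 82.2 and 72.0 (−0.21 ± 0.09) and Rpl37l1 medians of 71.0 and 63.9 (−0.30 ± 0.12). Each of these 5 genes, picked by p on these same animals, had 6 of 6 exposed males below the sham mean. Their groups overlapped, and all had an adjusted p of 0.829.

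Rps28 again had the widest change, with a log2 fold change of −0.55 ± 0.28 in males. Exposed males 13 and 15 were at 9.76 and 12.6 normalised CPM, and the other 4 exposed males at 21.8 to 34.5, inside or just under the sham range of 23.04 to 41.9. Rpl36 had the same order, with animals 13 and 15 at 75.7 and 73.1 and the others at 109 to 141, and a log2 fold change of −0.32 ± 0.16. Rpl22l1 was the gene furthest on the higher side in males, with medians of 14.8 in sham and 17.48 in exposed animals (0.28 ± 0.13, adjusted p = 0.829). Rps24, Rps27l, Rpl10 and Rps4x had log2 fold changes of 0.10 ± 0.09, 0.09 ± 0.10, 0.06 ± 0.07 and 0.04 ± 0.07.

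**Figure D2:**
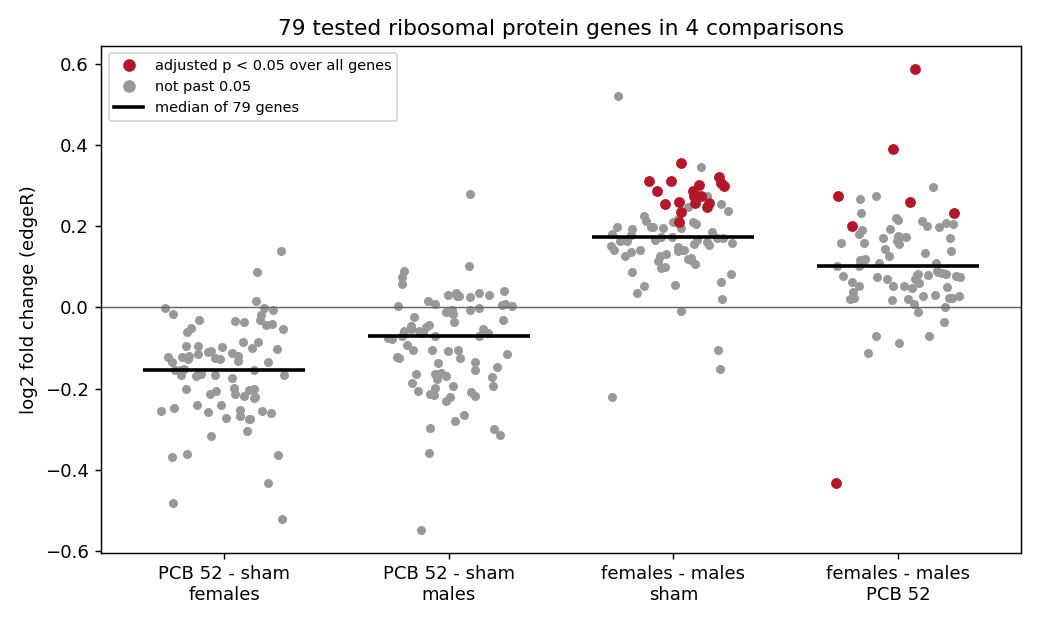
Log2 fold change (edgeR) of the 79 tested ribosomal protein genes in 4 comparisons, exposed against sham in each sex and females against males in each treatment, with a black line at the median and red points for an adjusted p under 0.05. No point is red for exposure, and the medians are −0.15 in females and −0.07 in males, while 18 genes are red among sham animals and 7 among exposed animals.

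The response of females was not shown to differ from that of males for any gene. In the test of the difference, 0 of 79 passed, as did 0% of 10535 genes, and 0 had an unadjusted p under 0.05. The median difference, females minus males, was −0.08, and 62 of 79 genes lay below 0. Without animal 2 the median was −0.01 and 41 genes lay below 0. The 2 responses use different animals throughout.

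Averaged over the sexes, 0 of 79 passed with edgeR, as did 0% of 10535 genes. The median was −0.12, beside 0.01 for all genes, and 71 of 79 lay below 0. A lower level at an unadjusted p under 0.05 was found for 30 of 79 (38.0%), against 7.38% of all genes. The smallest adjusted p, 0.146, was shared by Rps23 (−0.20 ± 0.06), Rpl36 (−0.39 ± 0.11), Fau (−0.33 ± 0.09) and Rpl37l1 (−0.33 ± 0.09). These 4 genes passed with DESeq2, with adjusted p-values of 0.0381 for Rps23, 0.0371 for Rpl36 and 0.04999 for Fau and Rpl37l1. DESeq2 passed 105 of all 10535 genes in this comparison. The 1 gene at an unadjusted p under 0.05 on the higher side was Rpl22l1, at 0.21 ± 0.10. Without animal 2 the family's median was −0.08, with 64 genes below 0. Without animals 13 to 16 it was −0.07, with 75 below 0. Without animals 2 and 13 to 16 it was −0.03, with 59 below 0.

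Subunit and TOP tract separated the responses little. In females the median log2 fold change was −0.13 for 33 small-subunit genes and −0.17 for 43 large-subunit genes, and in males it was −0.09 and −0.07. The 34 genes with the pyrimidine run had a median of −0.16 in females and −0.09 in males, and the 29 tested genes without a run within 2 bases of the start had −0.12 and −0.06. Differences between these groups were not tested.

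The family did not vary as a single unit across libraries. With group means removed, the median correlation between 2 of the 79 genes over 24 libraries was 0.483, and 90.2% of the 3081 pairs had a correlation above 0. The leading component held 44.2% of the family's within-group variance and the next 16.5%. Rplp0 and Rpsa followed the rest of the family most closely, with r of 0.911 and 0.902 against the mean of the other genes. All these genes share library, depth and scaling, so the correlations are descriptive. The median within-group SD was 0.17 on the log2 scale, beside 0.23 for all tested genes.

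The family spread along the library score. Rps2, Rps28, Fau, Rpl36 and Rps15 ran most strongly against it, with r from −0.887 to −0.842 over 24 libraries and group means removed. At the other end, Rpl9, Rps24, Rpl22l1 and Rps4x had r of 0.412, 0.40, 0.370 and 0.340. The median r was −0.412 in the family and 0.01 over 10535 genes. Rps2 and Rps15 were named after their values were seen.

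This order matched the order of the responses. The 33 genes with r below −0.5 had a median log2 fold change of −0.25 in exposed females and −0.17 in exposed males. The 21 genes with r from −0.5 to 0 had medians of −0.14 and −0.05. The 25 genes with r above 0 had medians of −0.05 and 0.01. Over all genes the same bands had medians of −0.12, −0.04 and 0.07 in females and −0.10, −0.03 and 0.06 in males. Over the 79 genes, the correlation of r with the average response was 0.691 (Spearman's rho 0.745), and over all 10535 genes it was 0.410 (rho 0.502). Exposed animals 13 to 16 had the highest scores, and r and the responses came from the same libraries, so these orders are not independent. In a fit with the score as a covariate, the family's median was −0.11 in females, with 75 of 79 below 0, and −0.04 in males, with 50 below 0.

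**Figure D3:**
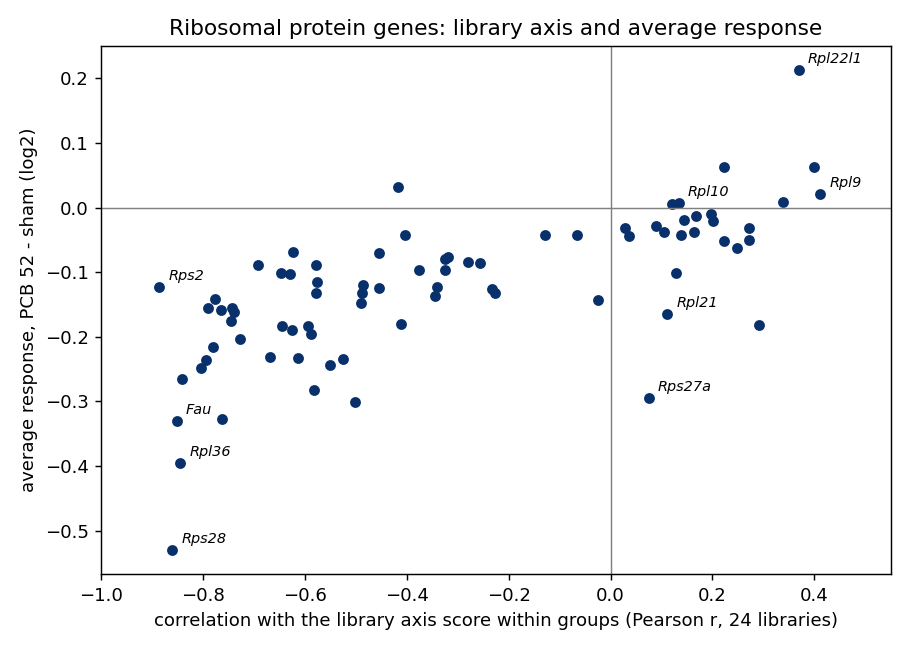
Average log2 response to PCB 52 of each of the 79 ribosomal protein genes (vertical) against its correlation with the library score within groups (horizontal, Pearson r over 24 libraries). Rps28, Rpl36 and Fau sit at the lower left, with r of −0.861, −0.845 and −0.852, and Rpl9 and Rpl22l1 at the right, with r of 0.412 and 0.370.

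By animal number, males 13 and 15 had the 2 lowest summed shares of the exposed males. Females 14 and 16 were not the 2 lowest exposed females. Shares of males 13 and 15 were 1.097% and 1.086%, and those of males 17 to 23 ran from 1.113% (male 17) to 1.216%. No wide gap lay between males 13 and 17. Females 14 and 16 had 1.272% and 1.164%, and females 18 to 24 had 1.235% to 1.408%. The mean log2 level of the 79 genes correlated with the library score at r = −0.572 over 24 libraries with group means removed (rho −0.522). Without the 2 libraries farthest from the median score it was −0.477. Without animals 13 to 16 it was −0.418. Leaving out the 2 farthest libraries of that smaller set gave −0.081, so within that set the relation rested on few animals.

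The levels of males and females with consecutive numbers were correlated, and within each treatment this rested on few pairs. Over 12 such pairs, the correlation of the group-centred mean level was 0.646 (rho 0.601), and 7 of 12 pairs lay on the same side of their group means. Without the 2 pairs farthest from the median it was 0.423, and 0.554 on library totals. Without animals 13 to 16 r was 0.707, and leaving out the 2 farthest pairs of that smaller set gave −0.213. In the 6 sham pairs r was 0.879, and 0.068 without the 2 farthest, with 4 pairs on the same side. In the 6 exposed pairs r was 0.531, and −0.302 without the 2 farthest, with 3 pairs on the same side. For single genes the median pair correlation was 0.589 in the family, with 53 of 79 above 0.5 (67.1%), against a median of 0.186 and 18.9% over 10529 genes. The genes share these same pairs and are not independent of each other. The labels do not pair these animals, and sham animals carry the numbers 1 to 12 and exposed animals 13 to 24, so number and treatment cannot be told apart.

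**Figure D4:**
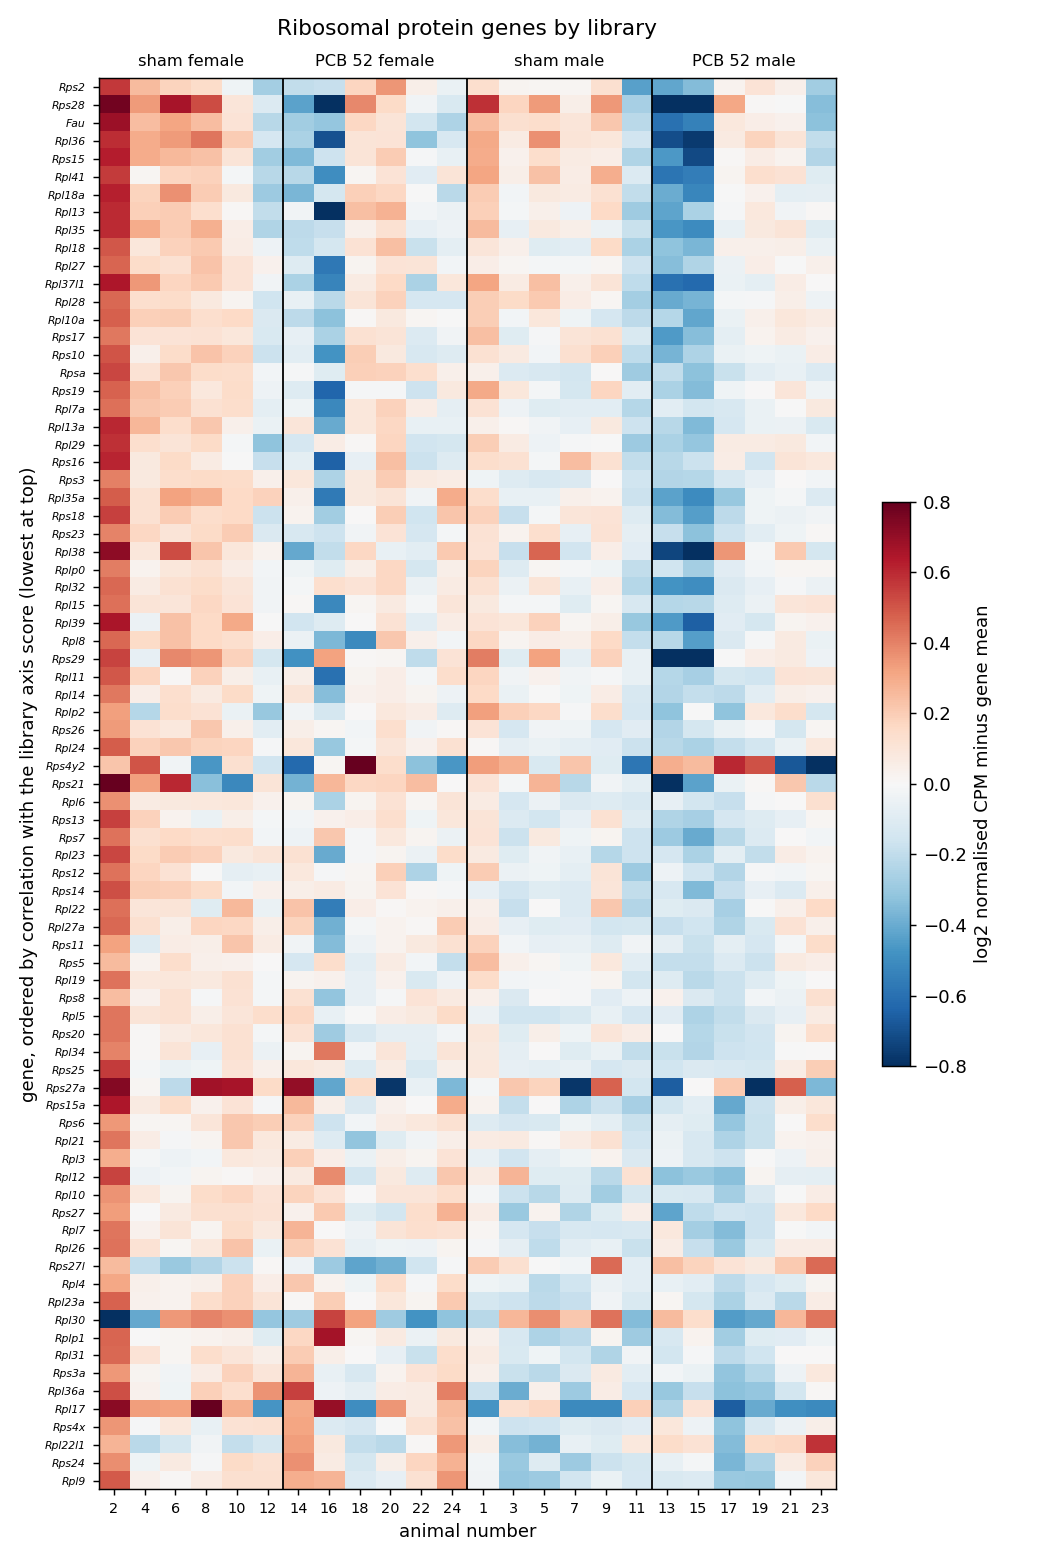
Log2 normalised CPM of the 79 tested ribosomal protein genes minus each gene's mean over 24 libraries (red higher, blue lower, scale ending at ±0.8), with animals by number within the 4 groups and genes ordered by their correlation with the library score. Animal 2 is red in most rows, animals 13, 15 and 16 are blue in the upper rows, and Rps27a, Rpl30, Rpl17 and Rps4y2 follow patterns of their own.

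A set of 18 ribosomal protein genes was higher in sham females than in sham males. They passed an adjusted p of 0.05 among the 79 tested, and all were higher in females (22.8%, against 10.7% of 10535 genes). None of the 79 was called lower in females, against 9.62% of all genes. Each of the 18 genes, called on these same animals, had 6 of 6 sham females above the sham male mean. The median log2 difference was 0.17, with 75 of 79 above 0, beside a median of 0.00 for all genes. Without animal 2, 9 of 79 genes passed (8 higher and 1 lower, Rps27l) and the median was 0.10. Over all genes, 2137 of 10575 passed in that fit, in either direction. The 8 that stayed were Rpl10, Rpl23a, Rpl24, Rpl5, Rps14, Rps3, Rps6 and Rpsa. In a limma-voom fit with consecutive animal numbers as a block, 25 genes passed, with a median of 0.16. All were higher in females, the 18 were among them, and 2568 of all 10535 genes passed. A limma-voom fit with library quality weights and no block passed 23 of the family, 22 higher and 1 lower. Over all genes it passed 2597 of 10535. This comparison shares its sham females, animal 2 included, with the exposure comparison in females.

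The large-subunit gene Rpl10, whose protein joins the 60S subunit last, had the smallest p. It ranged from 470 to 595 normalised CPM in sham females (median 507) and from 381 to 458 in sham males (median 415), and the groups did not overlap. The log2 difference was 0.31 ± 0.07 with an adjusted p of 0.00167. Rpl23a, which lies at the exit of the nascent-chain tunnel, ranged from 120 to 163 in females and from 101 to 114.8 in males (0.31 ± 0.08, adjusted p = 0.00333). Rpl5 ranged from 213 to 278 in females and from 185 to 200 in males (0.28 ± 0.07, adjusted p = 0.00486). For Rpl24 the log2 difference was 0.29 ± 0.08 (adjusted p = 0.0105), for Rpl23 it was 0.30 ± 0.09 (0.0146) and for Rpl9 it was 0.31 ± 0.09 (0.0163). Without animal 2, Rpl23 and Rpl9 no longer passed.

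On the small subunit, Rpsa ranged from 280 to 411 in sham females and from 233 to 291 in sham males (0.30 ± 0.08, adjusted p = 0.00845). Rps14, a gene lost in the 5q- syndrome, had medians of 197 and 163 (0.27 ± 0.08, adjusted p = 0.0130). Rps3, a protein at the mRNA entry channel, had medians of 200 and 167 (0.26 ± 0.08, adjusted p = 0.0138). Rps6 ranged from 646 to 814 in females and from 565 to 624 in males, without overlap (0.26 ± 0.08, adjusted p = 0.0156).

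The median log2 difference between sham females and males was 0.22 for the 25 genes with r above 0 with the library score and 0.16 for the 33 with r below −0.5. The difference between these sets was not tested. 4 of the genes are X-linked (Rpl10, Rpl36a, Rpl39 and Rps4x), and their median difference was 0.26, beside 0.19 for 59 autosomal genes with a known position. This was not tested either.

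Macrophage markers moved with sex as well. Of 10 Kupffer cell and macrophage markers, 8 were called higher in sham females, with a median log2 difference of 0.38. Their summed level was 726 to 895 normalised CPM in sham females and 585 to 669 in sham males, and no marker was at 0 in every library. Of the other marker lists in sham animals, 1 of 5 lymphocyte markers was called higher in females, and 2 of 8 hepatocyte, 1 of 6 endothelial and 1 of 3 cholangiocyte markers were called lower. Within groups the summed level of the macrophage markers correlated with the mean ribosomal protein level at r = 0.067. The same correlation was 0.423 for hepatocyte, −0.482 for endothelial, −0.482 for stellate, 0.350 for cholangiocyte, −0.244 for lymphocyte, −0.246 for erythroid and −0.030 for proliferation markers, over 24 libraries. The part of any marker list in these results was not tested.

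Among exposed animals 7 genes were called between the sexes. Of 79, 6 were called higher in females (7.59%, against 10.1% of all genes) and 1 lower (1.27%, against 9.73%). The median log2 difference was 0.10, and 72 of 79 lay above 0. Genes called higher were Rpl36a (0.39 ± 0.11, adjusted p = 0.0116), Rpl9 (0.28 ± 0.09, 0.0365), Rpl10 (0.20 ± 0.07, 0.0432), Rpsa (0.23 ± 0.08, 0.0438), Rpl17 (0.59 ± 0.20, 0.0446) and Rpl32 (0.26 ± 0.09, 0.0461). Without animals 13 to 16 the 1 call left was that of Rps27l. The count moved by over 1.5 times when any 1 of 13 animals was left out (2, 3, 6, 7, 8, 10, 13, 14, 15, 17, 19, 20 or 24), from 2 calls without animal 17 or 24 to 14 without animal 2. Over all genes the fits without animals 17, 24 and 2 passed 1966 of 10592, 1957 of 10574 and 2187 of 10575. Rps27l and Rpl36a were called in all 24 fits that left out 1 animal. Whether the sex difference itself differed with exposure is the test of the difference in response above, in which 0 genes passed. Of 10 Kupffer cell and macrophage markers, 7 were called higher in exposed females (median 0.35). Proliferation markers (2 of 4 called higher, median 0.78) and lymphocyte markers (2 of 5, median 0.32) moved the same way, and 2 of 8 hepatocyte and 1 of 3 cholangiocyte markers were called lower. Their part was not tested.

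Rps27l, a paralog of Rps27 and a known target of p53, was the gene called lower in females. It ranged from 27.9 to 37.3 normalised CPM in exposed females (median 32.1) and from 39.6 to 51.6 in exposed males (median 43.0), and the groups did not overlap. The log2 difference was −0.43 ± 0.11 with an adjusted p of 0.00287. Among sham animals it was −0.22 ± 0.10 (adjusted p = 0.152), with medians of 33.1 in females and 39.2 in males. There 1 sham female, animal 2, was at 44.8 and the other 5 at 30.4 to 37.7.

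4 genes followed the family least. Rpl30, Rps4y2, Rpl17 and Rps27a had correlations of −0.307, −0.117, −0.042 and 0.211 with the mean of the other genes, and within-group SDs of 0.41, 0.49, 0.38 and 0.47 on the log2 scale. Rpl30 was named after its values were seen. Rps4y2 was low, between 4.49 and 17.45 normalised CPM, and how reads shared with its paralog Rps4x were counted is not given in the sources used here.

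In Rpl30, Rpl17 and Rps27a the animals fell into separate ranges within every group. Rpl30 was between 38.0 and 58.8 normalised CPM in 11 animals and between 75.7 and 99.98 in the other 13, with none between. The lower range held 3 sham females, 4 exposed females, 2 sham males and 2 exposed males. Rpl17, a protein of the large subunit near the tunnel exit, was between 52.95 and 71.0 in 10 animals and between 88.5 and 148 in 14. Its lower range held 1 sham female, 1 exposed female, 3 sham males and 5 exposed males. The log2 difference of Rpl17 between exposed females and males was taken over animals divided in this way. Rps27a was at 141 to 170 in 6 animals and at 55.8 to 118 in 18. Its lower range held 3 sham females and 5 animals of each other group. Values in that lower range were spread as well, with the lowest sham male at 59.1 and the next at 91.9.

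Such gaps were wide for this family. The widest step between neighbouring log2 levels, with at least 4 animals on each side, was 0.36 for Rpl30, 0.32 for Rpl17 and 0.25 for Rps27a, beside a median of 0.07 in the family. Over all 10535 genes the median step was 0.11, and 4.72%, 5.86% and 9.71% of genes had a step as wide as these 3. The source of the ranges was not tested.

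**Figure D5:**
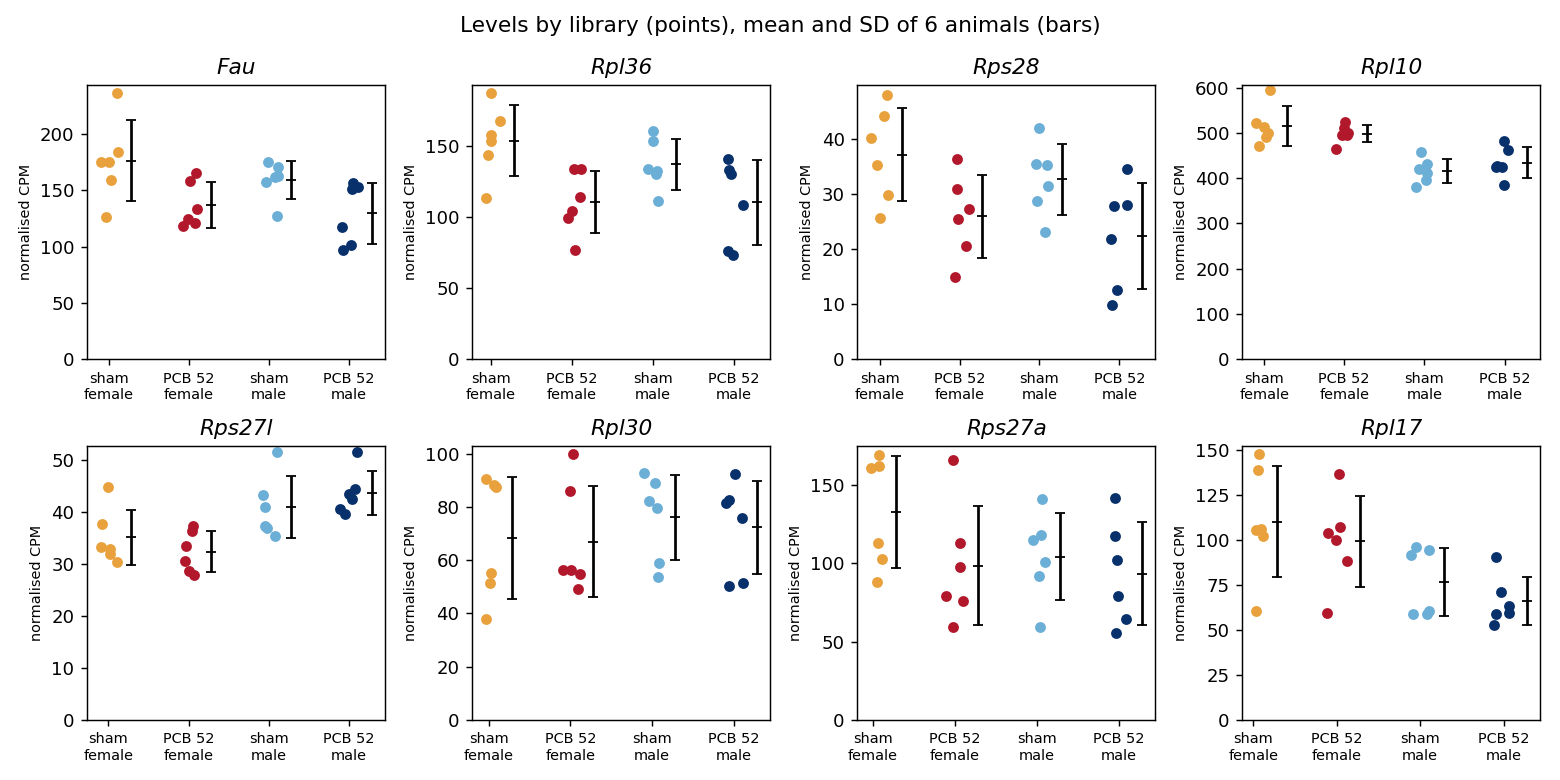
Normalised CPM of 8 ribosomal protein genes in each library (points) by group, with the mean and SD of 6 animals (black bars), on axes from 0. Fau, Rpl36 and Rps28 are lowest in some exposed animals, Rpl10 is higher in females and Rps27l is lower in females. Rpl30, Rpl17 and Rps27a spread widely within groups.

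Genes that build the ribosome, genes that share the TOP tract and other lists were set beside the family. In either exposure comparison 0 of them passed. RNA polymerase I and nucleolar genes (22 tested) had medians of −0.10 in females and −0.07 in males. Among them the polymerase subunits Polr1d and Polr2l had log2 fold changes of −0.37 ± 0.14 and −0.25 ± 0.10 in females and −0.20 ± 0.11 and −0.08 ± 0.11 in males. Small nucleolar ribonucleoprotein and rRNA modification genes (13 tested) had −0.16 and −0.11, with Gar1, a pseudouridylation factor, at −0.78 ± 0.22 (adjusted p = 0.342) in females. Its partner Dkc1 had −0.29 ± 0.18 and −0.32 ± 0.11, and the methyltransferase Fbl −0.25 ± 0.13 and −0.14 ± 0.14. Large-subunit assembly factors (39 tested) had −0.15 and −0.03, with Pes1, an assembly factor, at −0.36 ± 0.09 (adjusted p = 0.317) in females. Its partner Wdr12 had −0.35 ± 0.15 and −0.17 ± 0.15. The abundant nucleolar proteins Npm1 (0.00 ± 0.09 and 0.18 ± 0.08) and Ncl (−0.04 ± 0.09 and 0.12 ± 0.08) missed the threshold too. Small-subunit assembly factors (29 tested) had −0.13 and −0.05, with Imp3 at −0.08 ± 0.17 and −0.31 ± 0.09 and Nob1 at −0.26 ± 0.11 and −0.17 ± 0.09. Mitochondrial ribosomal protein genes (72 tested) had −0.11 and −0.03, and nuclear-encoded oxidative phosphorylation genes (74 tested) had −0.12 and −0.11. Of these, Mrpl54 had −0.41 ± 0.13 and −0.39 ± 0.13, Mrps21 −0.26 ± 0.10 and −0.03 ± 0.13, Atp5me −0.67 ± 0.21 and −0.30 ± 0.17, and Uqcr10 −0.67 ± 0.23 and −0.24 ± 0.13. Of the mitochondrial ribosomal protein genes, 55 of 72 lay below 0 in females, 48 in males and 51 in the average response. For oxidative phosphorylation it was 67 of 74, 64 and 69. Most genes lying below 0 was thus not particular to the cytosolic ribosomal protein genes.

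Translation factors and other TOP messages (28 tested) stayed nearer to sham, with medians of −0.05 in females and 0.04 in males. Eef1a1, the elongation factor that delivers aminoacyl-tRNA, had −0.05 ± 0.08 and 0.02 ± 0.06, and Tpt1 had −0.05 ± 0.09 and 0.04 ± 0.07. The ribosome-bound scaffold Rack1 had −0.06 ± 0.09 and −0.07 ± 0.07, the poly(A)-binding protein Pabpc1 −0.04 ± 0.08 and 0.07 ± 0.06, Eif4b −0.20 ± 0.08 and 0.00 ± 0.07, and Impdh2 −0.19 ± 0.09 and 0.05 ± 0.08. Between sham females and males, 10 of the 28 were called higher in females and none lower, with a median of 0.16. Over all 10535 genes, 10.7% were called higher and 9.62% lower. Values of this list without animal 2 are not given here. Genes of mTORC1 signalling (26 tested) had medians of −0.01 and 0.02, with Mtor at 0.02 ± 0.10 and 0.02 ± 0.08. The mTORC1 inhibitor Sesn2 had −0.47 ± 0.17 and −0.18 ± 0.26, Lamtor2 −0.28 ± 0.12 and −0.12 ± 0.12, and the translation repressor Eif4ebp1 −0.13 ± 0.16 and 0.00 ± 0.12. Of Myc and other transcription factors (14 tested), Myc had −0.40 ± 0.24 and −0.65 ± 0.47, its partner Max −0.43 ± 0.13 and −0.07 ± 0.12, and Taf1 0.09 ± 0.12 and 0.25 ± 0.12. Of ribosome quality control genes (14 tested), Ascc3 had 0.35 ± 0.12 and 0.34 ± 0.10 and Pelo −0.31 ± 0.13 and −0.10 ± 0.12. Adjusted p-values by edgeR were at least 0.317 in females and 0.829 in males for every gene of these lists.

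The genes most like the family's mean level over 24 libraries, with group means removed and 6769 genes of at least 10 normalised CPM compared, were Eif5a (r = 0.910), Atp5pd (0.889), Atp5mc2 (0.888) and Ddt (0.881). Arfgef1 (−0.855), Kat6a (−0.849), Zbed4 (−0.848) and Ash1l (−0.841) were the most opposed. These values share libraries and scaling and are descriptive.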

How the data were processed

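Gene counts of liver RNA were deposited by the authors as 1 table per sex, unnormalised per the labels, with 24 libraries in 4 groups. Per the submitters' processing notes, the tools were FastQC and HISAT2 and the build rn6. Counting software, strandedness and annotation are not given in the sources used here. The labels name poly(A) capture or rRNA removal. Ribosomal protein genes have many near-identical pseudogenes, and how shared reads were counted is not known here. Symbols came from RefSeq (GRCr8) for 15230 of 15319 IDs, and start sequences are RefSeq's of that build.

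Counts were filtered with filterByExpr (minimum count 10, minimum total 15), TMM-normalised and tested with edgeR 4.0.16 (robust quasi-likelihood) in R 4.3.3. Each sex was fitted alone for exposure, and all 24 libraries together for the other comparisons. P-values were adjusted by Benjamini-Hochberg over all genes, at 0.05. The levels in correlations are log2 CPM with 0.5 added. The library score was built from log2 CPM with a prior count of 2. Alternatives were RLE factors, factors without the family, library totals, other filters, DESeq2 1.42.0, limma-voom (limma 3.58.1), a fit that was not robust, 1 fit of all libraries for exposure, a score covariate, a block for consecutive animal numbers, an adjusted p of 0.10 and left-out libraries. The block was fitted with limma-voom and not with edgeR. Leaving out animals 1 and 2, or 2 and 13 to 16, was chosen after seeing the data. The scripts were tested on simulated data.

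The genes and lists were chosen with earlier results of these data known. Genes named were those that passed (up to 10 by smallest p), the 5 with the smallest p on each side of each exposure comparison, the 5 highest and 5 lowest, preset members and paralogs, and preset genes and the 2 with the smallest p of each other list. Others are named after their values were seen, among them Rps2, Rps15, Rps28 and Rpl30. Depth ran from 6994832 to 9185511 counts. Replicates were numbered in accession order and pair nothing. A gene that the rule selects is not reported here.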

Additional observations from a re-analysis of the deposited data

Results flagged for a closer look

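In a group of 6, a highest or lowest animal was singled out when its gap to the nearest other animal as a part of the group's range exceeded Dixon's 95% limit. Chance singles out about 1 group in 20, and 24 of the 172 groups of values examined (43 measures) were singled out. 16 of the 24 were the highest values of 1 sham female, animal 2, so they are not separate events. The genes share libraries.

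In animal 2 the summed share was 1.693% (next 1.433%) and the mean log2 level 7.439. Its normalised CPM was 161.9 for Rpl23, 162.9 for Rpl23a, 316.6 for Rpl3, 145.6 for Rpl32, 277.8 for Rpl5, 390.6 for Rpl7 and 264.5 for Rpl9. It was 533.2 for Rplp0, 355.6 for Rplp1, 250.4 for Rps14, 89.68 for Rps27, 239.1 for Rps3, 410.9 for Rpsa and 19.09 for Rpl22l1. Rpl30, the gene least like the rest of the family, was at its lowest there, 38.0 normalised CPM.

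In 1 exposed female, animal 16, Rpl11 was low at 78.35 normalised CPM, Rpl22 at 40.84, Rpl24 at 108.7 and Rps3 at 152.1, while Rplp1 was high at 408.6. Its library score, 15.1, was the highest of the 24. Exposed female animal 18 was high for Rps4y2 at 17.45. Among sham males, animal 11 was low for Fau at 126.7 and animal 1 was high for Rpl7 at 293.4.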

How the results depend on the processing

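The sign of the median held in 197 of 197 alternative fits of the 6 comparisons. Called genes of the family in the average response were 4 with DESeq2 (105 of all 10535 genes) and 0 otherwise. Among exposed animals, 7 genes of the family were called between the sexes, beside 2093 of all 10535. At an adjusted p of 0.10 there were 15, and the count over all genes is not given here. There were 15 with library totals (2048 of all 10535 genes) and 15 with a block for consecutive animal numbers (2510). Without animals 1 and 2 there were 15 (2175 of 10562), and with the score covariate 11 (2427 of 10535). Without a low-count filter 3 were called (2078 of 14066). Leaving out animals 13 to 16 gave 1 (1659 of 10618), and leaving out animals 2 and 13 to 16 gave 2 (1756 of 10598). Genes below 0 (7) became 17 in both of these last fits. Among sham animals, calls (18) fell to 6 without animals 1 and 2, beside 2015 of 10562 over all genes. Genes below 0 (4) rose to 10 without animals 2 and 13 to 16. Without animals 2 and 13 to 16, the female log2 fold changes of Rpsa and Rpl41 were 0.0179 and 0.00322. Of folds near 0, those of Rplp1 (−0.0579), Rps24 (−0.0248) in females and Rps4x (−0.00535, also without animal 2) in males turned without animals 13 to 16. With the score covariate Rplp1 was −0.00924, Rps24 −0.0384, Rplp2 0.0359 and Rps4x −0.00684. Rplp2 was 0.00922 with limma-voom, 0.0674 without animals 2 and 13 to 16 and 0.0357 without animals 1 and 2. The causes were not tested.

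Leaving out 1 animal at a time gave female medians of −0.19 to −0.08 with 63 to 76 genes below 0, and male medians of −0.10 to −0.05 with 54 to 71. The average response gave −0.14 to −0.08 and 64 to 75, and the female minus male response −0.11 to −0.01 and 41 to 70, with 0 calls in these 4 comparisons. Sex differences gave medians of 0.10 to 0.22, 9 to 21 calls and 3 to 10 genes below 0 in sham, and 0.07 to 0.14, 2 to 14 calls and 4 to 15 below 0 in exposed animals. Over all genes these fits passed 1928 to 2189 in sham and 1875 to 2187 in exposed animals. The fewest calls in sham came without animal 2. Rplp1 ran from −0.0286 to 0.181, Rplp2 from −0.0972 to 0.0357 and Rps24 from −0.0342 to 0.0775. The difference in summed share, exposed minus sham, was −0.167 to −0.0863 percentage points in females and −0.0919 to −0.0624 in males. Replicate numbers follow accession order and pair no animals. A limma-voom block for consecutive animal numbers, a pattern in the data and not in the labels, gave 25 calls among sham animals. Over all genes it gave 2568 of 10535. The number of animals, 6 in a group, limits the precision.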
